A study of Mus musculus with 7 samples.

Results

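*Sox10*, *Tfap2a* and *Tfap2b* are the neural crest and Schwann precursor markers described here, in outflow tracts (OFTs) of mouse embryos at embryonic day (E) 11.5. They were chosen by symbol, as rows of the table of normalized expression values that carry the name of 1 of 5 marker genes, and 3 of the 5 were read, among 14732 listed genes. The other two, *Foxd3* and *Fabp7*, were not analysed here. The RNA-seq experiment compared 3 control pools (replicates 3, 4 and 5; labelled WT) with 4 *Gata6*STOP/+ pools (replicates 1, 3, 4 and 5). The mutant pools carry 1 *Gata6* allele with a premature stop codon made by CRISPR-Cas9 editing of exon 2. The allele is present in every cell of the embryo and not in the crest alone, it was carried on a C57BL/6 background, and it goes back to 1 founder. The study's supplement names *Mib1* alleles for the line that was injected, and the labels give no *Mib1* genotype for the pools, so that a contribution of these alleles cannot be told apart. Each library was made from OFTs of several embryos pooled within a genotype, so that *P*-values measure the spread between pools, not between embryos. The question was whether haploinsufficiency of this GATA transcription factor changes transcripts of the OFT, and here whether it changes those that mark crest cells and crest-derived glia.

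Neural crest cells leave the dorsal neural tube, migrate and give rise to neurons, glia, pigment cells and, at cranial and cardiac levels, mesenchyme. Cardiac crest cells enter the OFT, where they build the aorticopulmonary septum and contribute to the valves and the arterial wall. Schwann cell precursors are crest cells that stay on growing nerves, and they keep *Sox10*, which crest cells that turn into mesenchyme or smooth muscle shut off. *Sox10* encodes an HMG-box transcription factor needed for glia and pigment cells. *Tfap2a* and *Tfap2b* encode AP-2 transcription factors that act at the neural plate border and in the crest, and AP-2α is also made in surface ectoderm. *Foxd3* encodes a forkhead factor that keeps crest cells multipotent, and *Fabp7* a fatty acid binding protein of glial precursors.

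*Sox10* lies on the minus strand of chromosome 15 of GRCm38, at chr15:79154908-79165240. *Tfap2a* lies on the minus strand at chr13:40715302-40738376 and *Tfap2b* on the plus strand at chr1:19208914-19238576. Because *Gata6* encodes a factor that binds the letters GATA, the windows from 250 bases before to 50 bases after the annotated starts are shown, as RefSeq gives them for GRCm38.p6. The table used had 2 such windows for *Tfap2a* and 1 for *Tfap2b*. The outer starts of the gene spans above, which come from GENCODE, were not searched. These windows lie inside those spans. Each is printed 5′ to 3′ on the strand of the gene, with GATA or its reverse complement TATC in capitals.
Tfap2a, first window, chr13:40734871-40735170: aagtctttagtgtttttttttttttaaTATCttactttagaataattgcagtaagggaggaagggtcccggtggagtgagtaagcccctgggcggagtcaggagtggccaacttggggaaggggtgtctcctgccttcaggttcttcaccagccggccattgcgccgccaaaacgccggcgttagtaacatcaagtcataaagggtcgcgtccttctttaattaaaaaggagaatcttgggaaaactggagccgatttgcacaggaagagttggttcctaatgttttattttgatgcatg
Tfap2a, second window, chr13:40733746-40734045: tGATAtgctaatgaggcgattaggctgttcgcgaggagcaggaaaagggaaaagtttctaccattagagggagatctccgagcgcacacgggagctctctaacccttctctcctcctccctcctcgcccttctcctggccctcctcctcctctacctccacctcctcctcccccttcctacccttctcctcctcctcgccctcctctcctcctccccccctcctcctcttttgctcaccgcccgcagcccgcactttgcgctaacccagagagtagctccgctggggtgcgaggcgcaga
Tfap2b, chr1:19211804-19212103: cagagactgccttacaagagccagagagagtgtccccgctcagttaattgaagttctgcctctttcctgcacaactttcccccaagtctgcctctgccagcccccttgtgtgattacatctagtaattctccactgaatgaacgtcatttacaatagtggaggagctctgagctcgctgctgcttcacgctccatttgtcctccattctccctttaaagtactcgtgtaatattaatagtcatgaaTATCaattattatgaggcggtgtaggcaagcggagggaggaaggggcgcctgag
Each window held 1 match, at base 28 and base 2 of the *Tfap2a* windows and at base 247 of the *Tfap2b* window, and 57.9% of all 32851 windows of this length held at least 1. Longer forms that include these letters (AGATAA or AGATAG, with TGATAA or TGATAG beside them) were found in 29.8% of all windows and in 0 of these 3. The AP-2 motif GCCNNNGGC, searched on both strands like the others, was found in 16.6% of all windows and in 0 of these 3. A match describes these letters and not binding, which was not measured.

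The libraries held 17783655 to 34467710 reads on listed genes, and the 10 genes with most reads took 6.56% to 7.15% of each. The values are CPM, that is reads scaled to a common size by the TMM-adjusted depth of each library, so that 1 CPM stands for 17.9 to 34.4 reads. *Gata6*, the edited gene, had 315, 257 and 286 CPM in the control (replicates 3, 4 and 5). In the mutant (replicates 1, 3, 4 and 5) it had 268, 203, 219 and 217 CPM. The groups overlapped, since replicate 1 of the mutant lay above control replicate 4. The difference in mean did not pass the test, at 286±28.9 CPM against 227±28.7 CPM (mean±s.d., *n*=3 and *n*=4 pools; log2 fold change -0.34, limma with Benjamini-Hochberg (BH) adjustment, adjusted *P*=0.389). The study itself called *Gata6* lower in the mutant, by edgeR at an adjusted *P* under 0.05, and found it lower by quantitative PCR too. Pools stood apart in 2 ways. In control replicate 3, the deviation of a gene from the other pools rose with the GC content of its transcript (Spearman's rho 0.608 across 11621 genes, against -0.316 to 0.206 in the other 6 pools). These 11621 genes have a mean of at least 5 CPM. *Gata6*STOP/+ replicate 1 had the widest spread of deviations from the other pools (s.d. 0.206 on the log2 scale, against 0.157 to 0.192 in the other 6) and was the lowest pool for 7 of 8 cardiomyocyte genes. These 2 pools were the highest for 19.4% and 19.3% of all genes and the lowest for 19.7% of all genes each. The fold changes of *Sox10*, *Tfap2a* and *Tfap2b* and the medians of the glial and early crest lists are given with and without control replicate 3. Without mutant replicate 1 the log2 fold changes of the 3 genes were -0.21, -0.36 and -0.22.

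*Sox10* transcripts were few, and their level was similar in all pools but 1. *Sox10* had 5.32, 2.66 and 2.35 CPM in the control (replicates 3, 4 and 5), from 111, 77 and 42 reads. The mutant (replicates 1, 3, 4 and 5) had 2.49, 2.54, 2.89 and 2.76 CPM, from 71, 70, 71 and 95 reads. Control replicate 3 was the highest of the 7 pools, and the other control pools lay within or just under the range of the mutant. The 95% Poisson interval of control replicate 3, 4.38 to 6.41 CPM, did not meet that of control replicate 4 (2.1 to 3.3 CPM) or of control replicate 5 (1.70 to 3.18 CPM). These intervals cover counting error only.

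The mean level of *Sox10* was 3.44±1.63 CPM in control pools and 2.67±0.188 CPM in mutant pools, or 77.5% of the control. The log2 fold change, on the scale of log2(CPM + 0.5), which can make the change of low genes look smaller, was -0.24 (s.e. 0.23, 95% confidence interval -0.75 to 0.26). It did not pass the test (limma, *P*=0.314, BH-adjusted *P*=0.826 over all listed genes), and the exact two-sided permutation test over the 35 ways to split the 7 pools gave *P*=0.743. The smallest *P* this design allows in that test is 0.0571. Without control replicate 3 the log2 fold change was 0.08 (limma, adjusted *P*=0.981), with the opposite sign. The 4 mutant pools differed by 1.16-fold from the lowest to the highest, and 94.9% of 1404 genes of similar level were at least as spread among these pools. Among control pools the spread was 2.26-fold, reached by 7.19% of those genes.

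**Figure D1:**
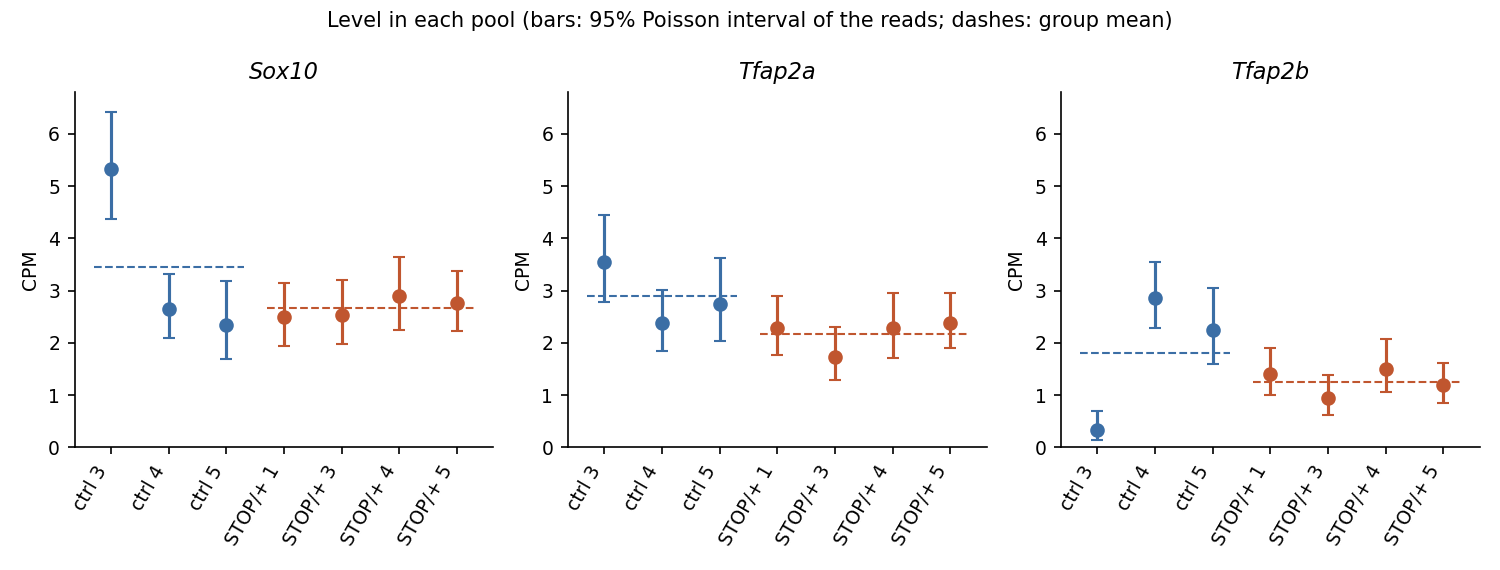
CPM (y axis) of *Sox10*, *Tfap2a* and *Tfap2b* in each of the 3 control pools (blue) and 4 *Gata6*STOP/+ pools (orange). Bars are 95% Poisson intervals of the reads and dashed lines are group means; control replicate 3 is the highest pool for *Sox10* (5.32 CPM) and *Tfap2a* (3.55 CPM) and the lowest for *Tfap2b* (0.336 CPM).

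*Tfap2a* was lower in mutant pools in mean, without passing the test. Control replicates 3, 4 and 5 had 3.55, 2.38 and 2.74 CPM, from 74, 69 and 49 reads. Mutant replicates 1, 3, 4 and 5 had 2.28, 1.74, 2.28 and 2.38 CPM, from 65, 48, 56 and 82 reads. The groups overlapped at their edge, where control replicate 4 and mutant replicate 5 were at the same level to 3 digits. Mean levels were 2.89±0.597 CPM and 2.17±0.292 CPM, or 75.1% of the control. The log2 fold change was -0.34 (s.e. 0.18, 95% confidence interval -0.73 to 0.05; limma, *P*=0.0820, adjusted *P*=0.676), and the exact permutation test gave *P*=0.114. Without control replicate 3 the log2 fold change was -0.20 (limma, adjusted *P*=0.954). The coefficient of variation was 20.7% among control pools and 13.4% among mutant pools, against 12.7% that counting alone gives in either group. Antisense genes are annotated over *Tfap2a*, and the strand setting of the read counting is not given in the sources used here, so that their reads cannot be told apart from its own.

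*Tfap2b* had the widest spread of the 3, and it lay among control pools. Control replicates 3, 4 and 5 had 0.336, 2.86 and 2.24 CPM, from 7, 83 and 40 reads. Mutant replicates 1, 3, 4 and 5 had 1.40, 0.942, 1.51 and 1.19 CPM, from 40, 26, 37 and 41 reads. Control replicate 3 was the lowest of the 7 pools and the other control pools were the highest, so that the mutant pools lay between them. The Poisson interval of control replicate 3, 0.135 to 0.692 CPM, lay under those of control replicates 4 (2.28 to 3.55 CPM) and 5 (1.60 to 3.05 CPM). The highest control pool was 8.53-fold above the lowest, and 1.34% of 1487 genes of similar level were as spread. The mutant pools differed by 1.60-fold, as 60.9% of these genes did or more.

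Mean levels of *Tfap2b* were 1.81±1.32 CPM and 1.26±0.249 CPM, or 69.5% of the control. The log2 fold change was -0.18 (s.e. 0.40, 95% confidence interval -1.07 to 0.71; limma, *P*=0.669, adjusted *P*=0.937; exact permutation test, *P*=0.457). Without control replicate 3 it was -0.80 (limma, unadjusted *P*=0.00507, adjusted *P*=0.436), without control replicate 4 it was 0.21 and without control replicate 5 it was 0.06, so that the control pool left out set its sign. Count models gave more negative values, -0.55 in the edgeR quasi-likelihood test (adjusted *P*=0.825) and -0.53 in DESeq2 (adjusted *P*=0.946). In the same tests *Sox10* stood at -0.37 in both (adjusted *P*=0.791 and 0.927) and *Tfap2a* at -0.41 and -0.40 (adjusted *P*=0.699 and 0.845). With 0.1 CPM added in place of 0.5, limma gave -0.26 for *Sox10*, -0.39 for *Tfap2a* and -0.11 for *Tfap2b*, so that the size of the change moved up for the first 2 genes and down for the last.

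**Figure D2:**
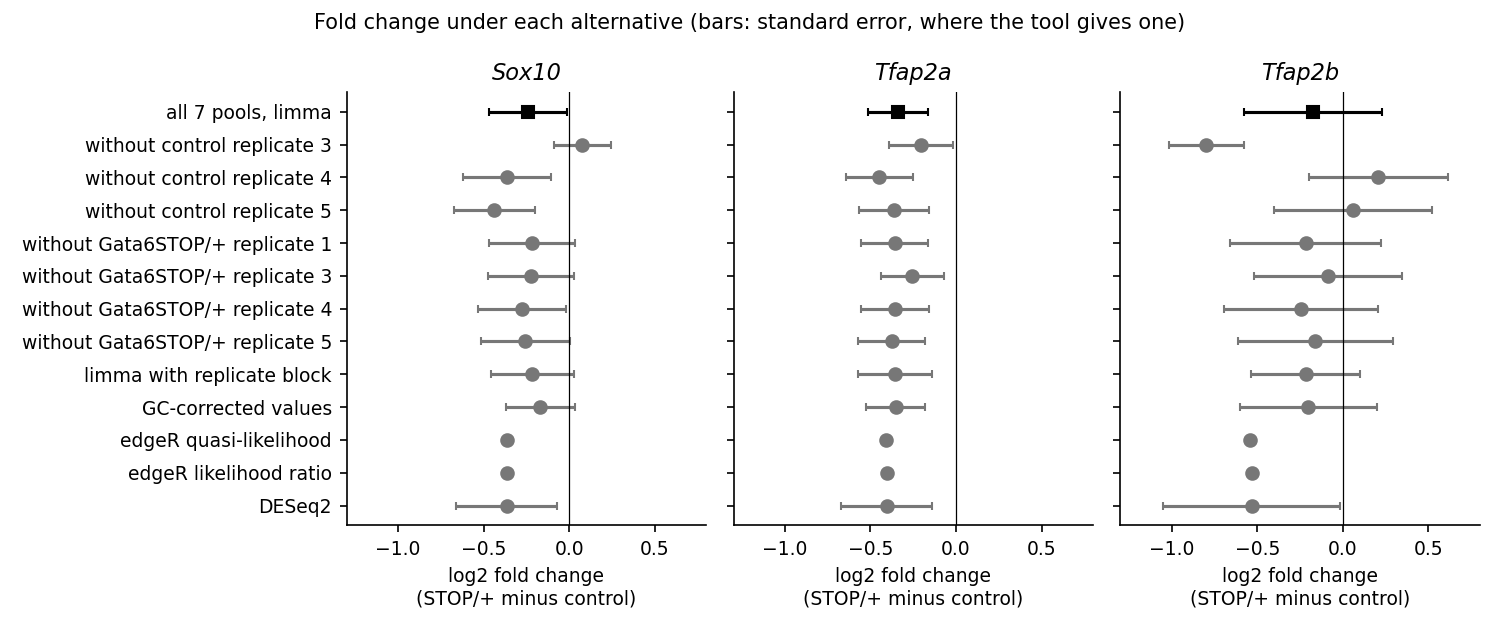
Log2 fold change of each marker (x axis, *Gata6*STOP/+ minus control) in the fit over all 7 pools (black square) and under alternatives named on the y axis (grey). Bars are standard errors, which edgeR does not give; leaving out control replicate 3 moved *Sox10* from -0.24 to 0.08 and *Tfap2b* from -0.18 to -0.80.

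Of the 3 markers, 0 were called by limma at an adjusted *P* under 0.05, as were 0% of all genes, and 0 had an unadjusted *P* under 0.05, against 8.06% of all genes. EdgeR's quasi-likelihood test also called 0 of all genes, its likelihood ratio test 0.713% (0.801% with a replicate block) and DESeq2 0.597%, and the 3 markers were not called by any of them. All 3 were lower in mutant pools by log2 fold change, as were 50.2% of all genes. Groups without overlap were seen for 0 of the 3 and for 8.47% of all genes. With these intervals the data leave room for a mutant level between 0.596 and 1.2 times the control for *Sox10*, 0.605 and 1.04 times for *Tfap2a* and 0.477 and 1.64 times for *Tfap2b*, on the scale with 0.5 CPM added. In RNA from whole OFTs, fewer cells of a type and less RNA per cell cannot be told apart.

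Per kilobase of exon, *Sox10* was the highest of the 3 and *Tfap2b* the lowest in each of the 7 pools. *Sox10* was at 1.13±0.536 CPM per kilobase in control pools (0.771 to 1.74) and 0.875±0.0617 in mutant pools (0.816 to 0.947). *Tfap2a* was at 0.590±0.122 in control pools (0.486 to 0.724) and 0.443±0.0595 in mutant pools (0.355 to 0.486). *Tfap2b* was at 0.286±0.208 in control pools (0.0530 to 0.452) and 0.199±0.0393 in mutant pools (0.149 to 0.237). The ranges of neighbours in this order did not meet in either genotype. Among listed genes the markers were near the bottom by CPM, and 14.9% of all genes had a lower mean than *Sox10*.

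In control replicate 3 the 3 markers departed from the other pools by more than the median of genes of similar GC content. Many genes lie beyond such a median, so that this comparison does not set the markers apart. The genes compared have a mean of at least 5 CPM, above the level of the markers, whose counting error is larger. Over all 11621 genes of at least that mean, deviations in this pool had an s.d. of 0.192. The longest transcript of *Sox10* holds 61.8% G and C, more than 98.1% of genes, that of *Tfap2a* 48.7% and that of *Tfap2b* 46.3%. *Sox10* was 0.91 above the median of the other pools on the log2 scale in this pool, where the median of 457 genes within 2 GC points of it was 0.18. *Tfap2b* was at -1.23, against a median of -0.06 for 2397 genes of similar GC content. *Tfap2a* was at 0.52, against -0.02 for 2471 such genes. After removal of the trend on GC content in each pool, an alternative chosen after seeing the data, the log2 fold changes were -0.17 for *Sox10*, -0.35 for *Tfap2a* and -0.20 for *Tfap2b* (limma, adjusted *P*=0.930, 0.712 and 0.960). The part of GC content in the levels of control replicate 3 was not tested beyond these values.

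**Figure D3:**
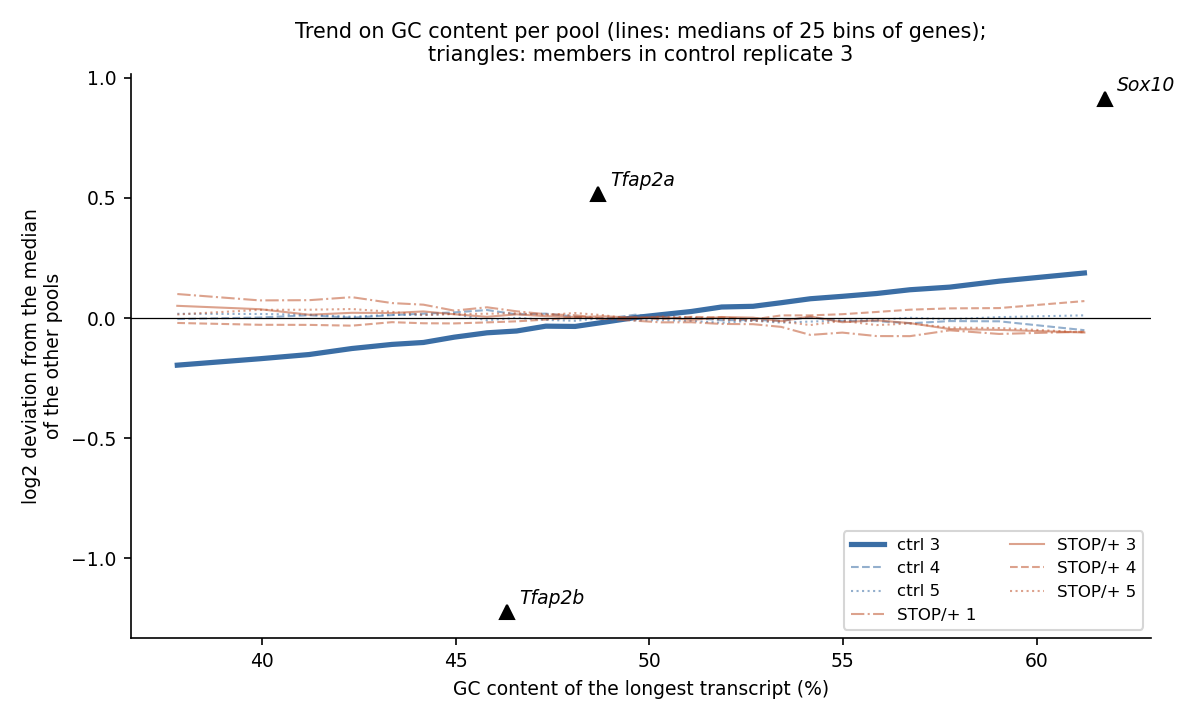
Median log2 deviation of genes from the other pools (y axis) against GC content of the longest transcript (x axis, %), 1 line per pool over 25 bins of genes (blue, control; orange, *Gata6*STOP/+). Genes in the bins have a mean of at least 5 CPM. Control replicate 3 (thick line) rises with GC content, and the triangles place *Sox10* (0.91), *Tfap2a* (0.52) and *Tfap2b* (-1.23) in that pool off its line.

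Across pools the 3 markers did not vary as 1 group. *Sox10* and *Tfap2a* had a Pearson's *r* of 0.74 over the 7 pools (exact permutation *P*=0.106, BH-adjusted over 3 pairs 0.159) and a Spearman's rho of 0.18 (exact permutation *P*=0.713, adjusted 0.906). *Sox10* and *Tfap2b* had an *r* of -0.78 (exact permutation *P*=0.0518, adjusted 0.155) and a rho of -0.43 (exact permutation *P*=0.354, adjusted 0.906). *Tfap2a* and *Tfap2b* had an *r* of -0.34 (exact permutation *P*=0.460, adjusted 0.460) and a rho of -0.07 (exact permutation *P*=0.906, adjusted 0.906). Without the 2 pools farthest from the median of the first gene of each pair, *r* was 0.45, 0.16 and 0.45, and 0 of the 3 relations had passed the test with all pools. Control replicate 3 was 1 of the 2 each time, and leaving it out alone gave -0.16, -0.18 and 0.69. With genotype means removed, *r* was 0.73, -0.90 and -0.62.

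The genes whose pattern over the 7 pools was most like that of *Sox10*, among those with a mean of at least 5 CPM, were *Cherp* (*r*=0.993), *Dnm2* (*r*=0.981) and *Gnb1* (*r*=0.979). They were higher in control replicate 3 than in the mean of the other control pools by 1.17-, 1.24- and 1.05-fold, where *Sox10* was higher by 2.13-fold. The most like *Tfap2a* were *Rarg* (*r*=0.978), *Pef1* (*r*=0.977) and *Tmem200b* (*r*=0.975), and the most like *Tfap2b* were *Bag4* (*r*=0.969), *Tmem41b* (*r*=0.968) and *Tspan5* (*r*=0.963). Genes with an *r* of at least 0.9 to *Sox10* numbered 120 of 14731, or 0.815%, with a median GC content of 57.3% against 49.5% over all genes. Of 92 genes in the lists described next, 1 was among them, *Metrn*, a secreted factor gene of glial progenitors, named after its values were seen. For *Tfap2a* the share was 0.699% of all genes and 4 of the 92, namely *Sox9*, *Erbb3*, *Itga4* and *L1cam*, named after their values were seen. For *Tfap2b* it was 0.278% and 0 of the 92.

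Markers of Schwann cell precursors and glia were measured for 15 of 22 genes on the list. Relative to control pools 7 were higher and 8 lower in mutant pools, with a median log2 fold change of -0.06, against 0.00 over all genes. Of the 15 genes 0 passed the test, like 0% of all genes (limma, smallest adjusted *P* of the list 0.222). At an unadjusted *P* under 0.05, 1 of the 15 was higher and 5 were lower, against 4.17% and 3.88% of all genes. Without control replicate 3 the list had 8 genes higher and 7 lower and a median of 0.05. *Itga4*, an integrin subunit of migrating crest cells, had the highest level of the list, with 189, 147 and 156 CPM in the control (replicates 3, 4 and 5) and 133, 111, 113 and 127 CPM in the mutant (replicates 1, 3, 4 and 5). Every mutant pool lay below every control pool (log2 fold change -0.43, s.e. 0.09, limma, adjusted *P*=0.222, and -0.33 without control replicate 3), as it did for 4.16% of all genes. The study ran its category analysis on genes that edgeR called at an adjusted *P* under 0.05. It named *Itga4* in a category depleted in the mutant. *Pmp22*, a myelin protein gene that other tissues also express, had a mean of 97.4±8.03 CPM in the control and 118±7.67 CPM in the mutant, with every mutant pool above every control pool (log2 fold change 0.28, s.e. 0.07, limma, adjusted *P*=0.319), as it was for 4.31% of all genes.

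*Ednrb*, the endothelin receptor of crest-derived glia, neurons and pigment cells, which endothelium also expresses, had the most negative log2 fold change of the list. Control replicates 3, 4 and 5 had 22.5, 81.0 and 27.8 CPM, and mutant replicates 1, 3, 4 and 5 had 18.6, 17.2, 14.1 and 16.5 CPM. Control replicate 4 stood far above the rest, and every mutant pool was still below the lowest control pool, as for 4.16% of all genes. The log2 fold change was -1.14 (s.e. 0.34, limma, adjusted *P*=0.393) with all pools and -0.58 (adjusted *P*=0.201) without control replicate 4. In that pool *Ednrb* was 3.22-fold above the mean of the other control pools, and the endothelial genes *Emcn*, *Kdr* and *Cdh5*, named after their values were seen, were 2.3-, 1.65- and 1.36-fold above it. The other 3 of the 6 endothelial genes were at 0.907 to 1.17 times that mean, and the part of endothelium in the level of *Ednrb* was not tested. *L1cam*, a neural adhesion molecule gene, was the remaining gene of the list with every mutant pool below every control pool and is named for that after its values were seen. It was at 43.1, 21.6 and 24.4 CPM in control pools and 16.7 to 20.5 CPM in mutant pools (log2 fold change -0.61, limma, adjusted *P*=0.428; -0.31 without control replicate 3). *Erbb3*, the neuregulin receptor of the Schwann lineage, was at 104, 70.4 and 78.6 CPM in control pools and 70.5, 58.0, 64.9 and 61.1 CPM in mutant pools, which overlapped by a narrow margin (log2 fold change -0.39, limma, adjusted *P*=0.419; -0.23 without control replicate 3). It was named after its values were seen, like *L1cam*, while 7 of the 15 genes of the list were higher in mutant pools. The study named *Erbb3*, like *Itga4*, in a depleted category drawn from the genes its edgeR test called. Which cells of the OFT hold *Erbb3* transcripts was not measured. The glial markers *Gfra3* and *S100b* were not analysed here.

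**Figure D4:**
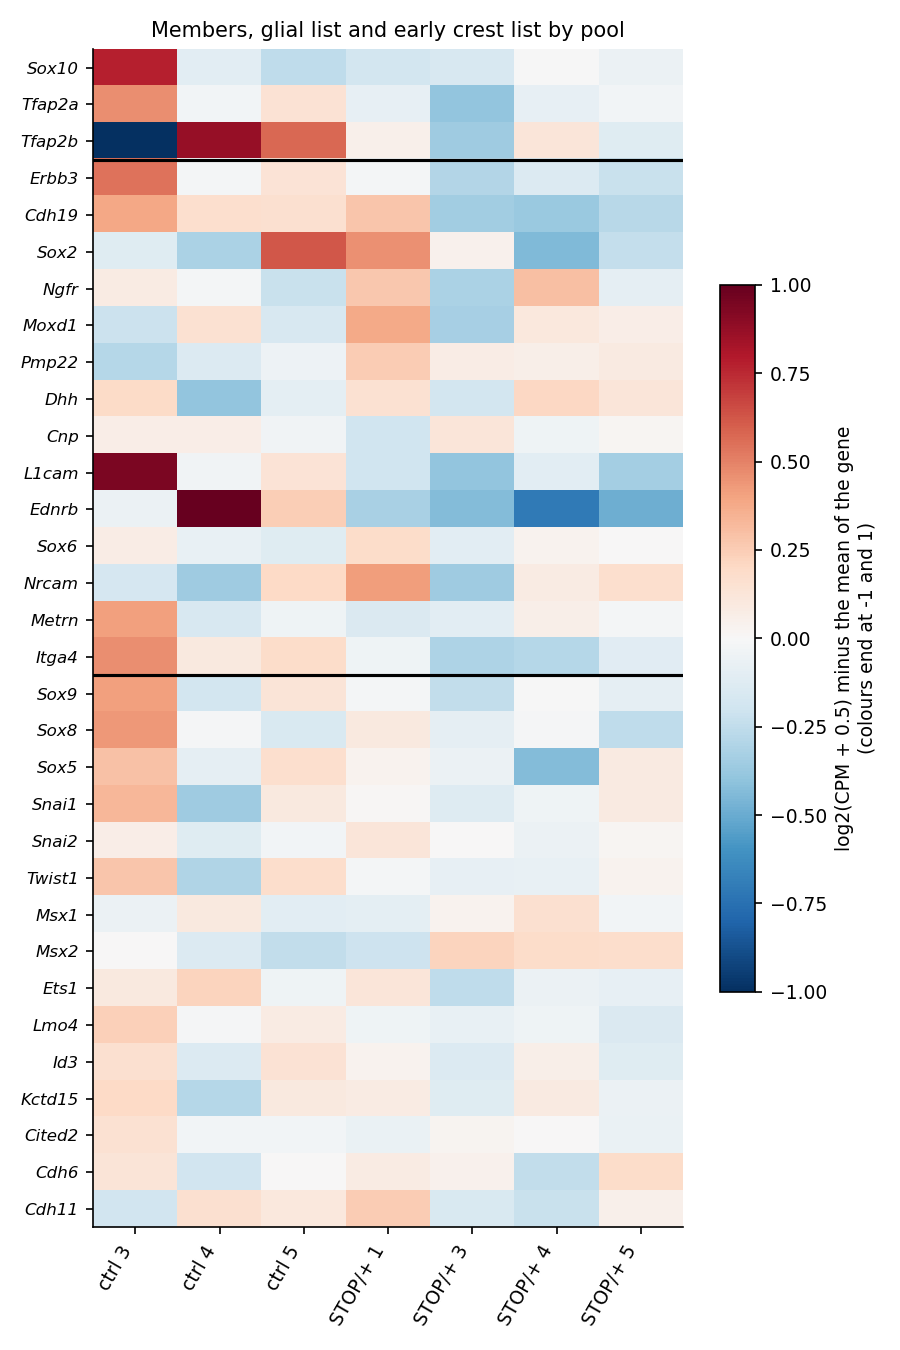
Log2(CPM + 0.5) minus the mean of each gene (colour) for the 3 markers, 14 of the 15 glial genes and the 15 early crest genes (rows, separated by black lines) in the 7 pools (columns; ctrl, control; STOP/+, *Gata6*STOP/+). Colours end at -1 and 1; control replicate 3 is red for *Sox10*, *Erbb3*, *L1cam* and most early crest genes and blue for *Tfap2b*.

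Genes of early and migratory crest were measured for 15 of 20 on the list. Of these 4 were higher and 11 lower in mutant pools, with a median log2 fold change of -0.06. In this list 0 passed the test, like 0% of all genes (limma, smallest adjusted *P* of the list 0.534). At an unadjusted *P* under 0.05, 0 were higher and 1 was lower, *Lmo4*, a LIM-only factor gene and the single one of the list whose groups did not overlap, named after its values were seen (-0.18, and -0.11 without control replicate 3). All genes had an unadjusted *P* under 0.05 in 8.06% and no overlap in 8.47%, near the share of this list. *Cdh11*, a mesenchymal cadherin gene, was the most abundant at 274±35.2 CPM in control and 267±40.3 CPM in mutant pools (log2 fold change -0.04). *Msx2*, a homeobox factor gene, had the most positive log2 fold change (16.0±1.45 against 18.8±2.54 CPM; 0.22, limma, adjusted *P*=0.681). *Sox5*, an SRY-box factor gene, had the most negative one (22.1±3.0 against 19.1±3.01 CPM; -0.22, limma, adjusted *P*=0.737). Control replicate 3 was the highest of the 7 pools for 9 of the 15 genes, where it was the highest for 19.4% of all genes. Without this pool 8 genes of the list were higher and 7 lower, with a median of 0.02, so that the direction of the list rested on it. *Sox9*, a paralog of *Sox10* named here after its values were seen, was 1 of the 9, with 142 CPM in that pool, 93.7 and 117 CPM in control replicates 4 and 5, and 89.7 to 106 CPM in the mutant (log2 fold change -0.21, and -0.06 without control replicate 3).

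Cardiac neural crest mesenchyme was measured by 16 of 18 genes, 8 higher and 8 lower in mutant pools, with a median log2 fold change of -0.01. Of these 0 passed the test, 2 of 16 were higher and 2 lower at an unadjusted *P* under 0.05 (4.17% and 3.88% of all genes), and the smallest adjusted *P*, 0.0970 for *Barx1*, was also the smallest over all genes (limma). *Gsc*, counted among the higher genes and named after its values were seen, had 0.384, 0.828 and 0.784 CPM in control pools. It reached 1 CPM only in mutant pools, so that it entered the listed genes through the group where it was higher. *Barx1*, a homeobox factor gene of pharyngeal arch mesenchyme, had 4.70, 3.04 and 4.09 CPM in the control (replicates 3, 4 and 5) and 7.40, 10.1, 9.36 and 8.4 CPM in the mutant (replicates 1, 3, 4 and 5). Every mutant pool lay above every control pool, as for 4.31% of all genes (3.94±0.841 against 8.83±1.19 CPM, log2 fold change 1.08, s.e. 0.16). *Pdgfra*, a growth factor receptor gene of crest mesenchyme, was at 311, 227 and 280 CPM in control pools and 223, 159, 167 and 223 CPM in mutant pools. Every mutant pool was below every control pool, as for 4.16% of all genes (log2 fold change -0.50, limma, adjusted *P*=0.354, and -0.40 without control replicate 3). The study named *Pdgfra* in a depleted category drawn from the genes its edgeR test called. *Hand2*, a bHLH factor gene that cardiac crest shares with myocardium, was at 247±23.2 and 253±13.7 CPM (log2 fold change 0.04).

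Derivatives and other tissues that use the same factors gave 0 calls in each list, like 0% of all genes (limma). Of 18 autonomic and sensory neuron genes 9 were measured, 6 higher and 3 lower, with a median of 0.11. At an unadjusted *P* under 0.05, 3 of the 9 were higher and 1 was lower (4.17% and 3.88% of all genes). *Th*, the rate-limiting enzyme gene of catecholamine synthesis, was at 1.29, 1.14 and 1.51 CPM in control pools and 2.28, 2.43, 2.24 and 2.36 CPM in mutant pools. Each mutant pool lay above each control pool, as for 4.31% of all genes (log2 fold change 0.64, s.e. 0.16, limma, adjusted *P*=0.285). *Isl1*, a LIM homeobox gene that the second heart field also expresses, was at 38.2±3.95 and 54.0±12.3 CPM (log2 fold change 0.47, limma, adjusted *P*=0.419), and *Tubb3*, a neuronal tubulin gene, at 37.5±10.2 and 27.9±3.73 CPM (-0.39, adjusted *P*=0.595). Of 7 melanoblast genes 3 were measured, with a median of 0.09, among them *Mitf* (35.9±1.81 against 38.3±4.76 CPM) and *Kit* (12.7±1.87 against 11.5±0.769 CPM). The melanoblast genes *Dct* and *Tyr* and the neuronal genes *Neurog1* and *Pou4f1* were not analysed here.

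**Figure D5:**
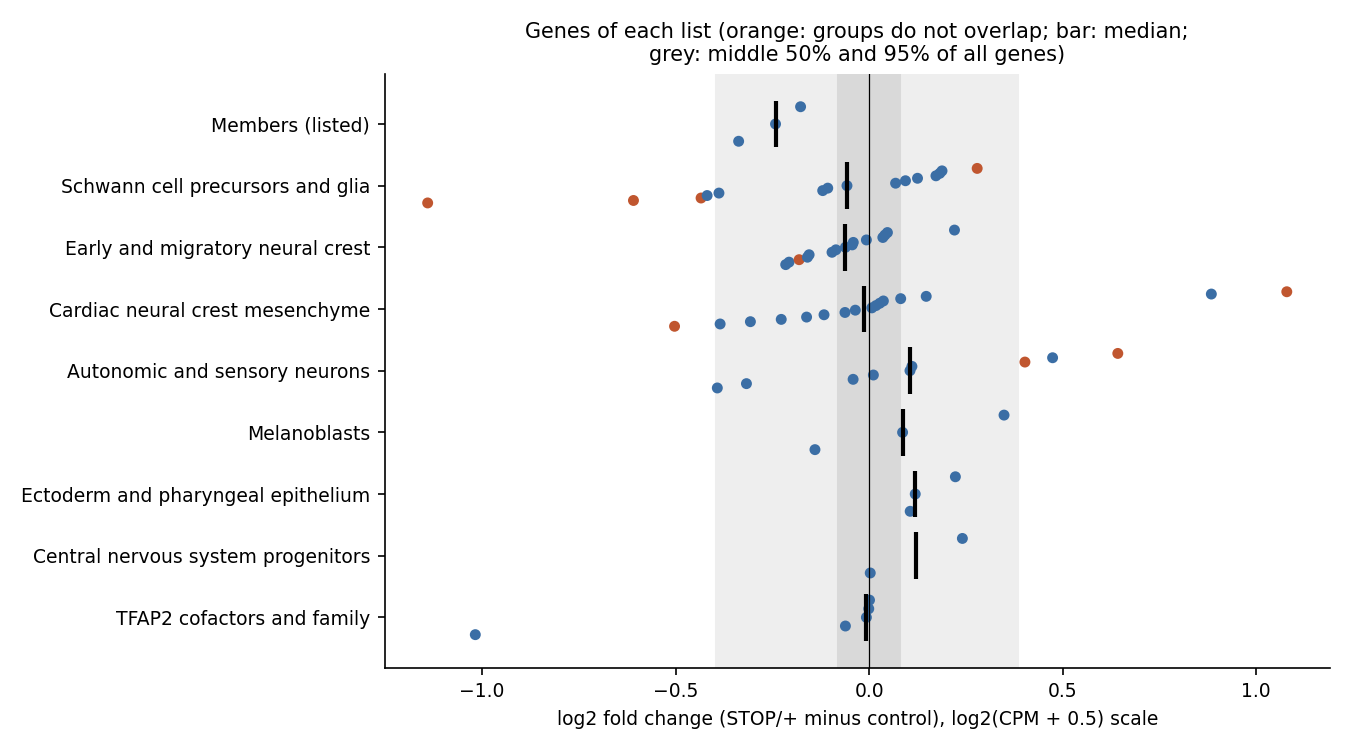
Log2 fold change (x axis, *Gata6*STOP/+ minus control) of each gene in the lists named on the y axis, with list medians as black bars and, in grey, the middle 50% and 95% of all genes. Orange points are genes whose groups did not overlap; the 3 markers lie between -0.34 and -0.18, and *Ednrb* (-1.14) and *Barx1* (1.08) lie farthest out.

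*Tfap2a* is a gene of ectoderm as well as crest. Of 18 ectoderm and pharyngeal epithelium genes 3 were measured, and all 3 were higher in mutant pools without passing the test (median log2 fold change 0.12), among them the keratin gene *Krt8* (57.1±14.0 against 61.0±11.1 CPM) and *Grhl3*, a factor gene of surface ectoderm, with the largest difference (0.22). Control replicate 4 was the lowest pool for all 3, and without it 1 was higher and 2 were lower, with a median of -0.06. The summed level of the list ran from 96.2 to 143 CPM in control pools and from 116 to 151 CPM in mutant pools. *Epcam* and *Cdh1* were not analysed here. Of 10 genes of central nervous system progenitors 2 were measured, *Nes* (355 CPM in both groups) and *Pax6* (1.78 against 2.16 CPM), with a median of 0.12 and, without control replicate 4, of -0.02. Of 8 AP-2 cofactor and family genes 5 were measured, 1 higher and 4 lower, with a median of -0.01. *Cited2*, a coactivator gene of AP-2 factors, was at 64.3±4.74 and 61.5±2.02 CPM, and *Cited4* at 10.9 and 11.1 CPM. *Cited1*, a related coactivator gene, was at 25.9, 143 and 37.5 CPM in control pools and 28.4±13.7 CPM in mutant pools (log2 fold change -1.02, limma, adjusted *P*=0.683), and at -0.29 without control replicate 4, a pool in which *Cited1* was 4.50-fold above the mean of the other control pools. In the melanoblast, epithelium, progenitor and AP-2 lists 0 genes had an unadjusted *P* under 0.05.

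Other tissues of the OFT varied between pools as well, among them smooth muscle, which crest cells also form. The summed level of 6 erythroid genes ran from 2236 to 5423 CPM in control pools and 2606 to 6801 CPM in mutant pools, with a median log2 fold change of 0.48 (6 of 6 higher). 8 cardiomyocyte genes summed to 21290 to 23966 CPM and 17508 to 24759 CPM (median -0.08, and 0.03 without mutant replicate 1, with 2 higher and 6 lower over all pools). The 6 smooth muscle genes summed to 2768 to 3190 CPM and 2960 to 3746 CPM (median 0.18, 6 of 6 higher). The 6 endothelial genes summed to 619 to 810 CPM and 679 to 831 CPM (median 0.10, 5 higher and 1 lower). The 15 glial genes summed to 557 to 644 CPM in control pools and 477 to 559 CPM in mutant pools, and the 15 early crest genes to 1109 to 1234 CPM and 1037 to 1194 CPM. Of the genes of these 4 other tissues 0 passed the test, like 0% of all genes (limma). At an unadjusted *P* under 0.05, 2 were higher (1 smooth muscle and 1 erythroid gene) and 0 lower, against 4.17% and 3.88% of all genes. The part of these tissues in the levels of the crest markers was not tested.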

How the data were processed

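RNA was measured in 3 control and 4 *Gata6*STOP/+ pools of E11.5 OFTs, by sequencing of polyA-selected, strand-marked libraries. The series' design text speaks of 3 pools per genotype, and all 7 labelled pools were used. The authors trimmed reads with Cutadapt, quantified Ensembl genes on GRCm38 with RSEM, removed genes that did not reach 1 CPM in 3 pools or more, and deposited CPM of the edgeR TMM-adjusted library size. Dividing by what 1 read is worth gave whole reads for 100% of values in each pool (tolerance 0.001), which served the count models and Poisson intervals.

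Genes were tested over all 7 pools with limma 3.58.1 in R 4.3.3, with a trend of variance on level, as a two-sided test of log2(CPM + 0.5) with BH adjustment over 14732 genes, threshold 0.05. Permutation tests used scipy 1.17.1. Alternatives were constants of 0.1 and 2, a mean of at least 5 CPM, median-of-ratios scaling, a replicate block, edgeR 4.0.16, DESeq2 1.42.0, each pool left out, and removal of GC trends in 25 bins (added after seeing the data). Fits were tested on simulated data. Exon lengths, positions and GC content come from GENCODE M21 (14716 identifiers matched). No sequence window for *Sox10* was used here.

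The members and the 12 gene lists were chosen with earlier results of these data known, and lists were described without a test. Genes named are the members, *Gata6*, from each list the most abundant gene and those with the largest rise and fall at a mean of at least 1 CPM, list genes past the threshold (0), and the 3 genes most like each member. Lists of 4 other tissues are given as sums. Other names are marked as chosen after their values were seen. Per-sample columns left unused numbered 0. Some items of the lists are counted but not reported here.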

Additional observations from a re-analysis of the deposited data

Results flagged for a closer look

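Of 44 genes checked, 4 had 1 *Gata6*STOP/+ pool far from the other 3, by a gap to the nearest pool that, as a share of the range, passed Dixon's 95% critical value for 4 samples. Chance gives such a pool in about 1 in 20 groups where all pools vary alike, and the share over all listed genes was not computed. Mutant replicate 1, the odd pool for *Pmp22*, *Msx2* and *Mitf*, was the highest of the 7 pools for 19.3% of all genes and the lowest for 19.7%. *Tfap2a* was lowest in replicate 3, at 1.74 CPM, against 2.28 to 2.38 CPM in the others. *Pmp22* was highest in replicate 1, at 129.7 CPM (113 to 116 CPM in the others). *Msx2* was lowest in replicate 1, at 15.0 CPM (19.8 to 20.5 CPM in the others), and so was *Mitf*, at 31.2 CPM (40.4 to 40.9 CPM in the others).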

How the results depend on the processing

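Over 51 alternatives, the 3 markers kept their direction and stayed short of the threshold in 47 and changed sign in 4. *Sox10* was at 0.077 without control replicate 3 and at 0.092 in GC-corrected values without it, and *Tfap2b* at 0.207 without control replicate 4 and 0.059 without control replicate 5. Leaving out each pool in turn gave -0.44 to 0.08 for *Sox10*, -0.45 to -0.20 for *Tfap2a* and -0.80 to 0.21 for *Tfap2b*. Genes called over the table were 0 with all pools (limma, 1187 at an unadjusted *P* under 0.05), 1 with a constant of 0.1, 105 by the likelihood ratio test, 88 by DESeq2, and 0 to 13 with 1 pool left out (13 when that pool was control replicate 4, 2 for mutant replicate 3 and 1 for mutant replicate 1). Same-numbered pools did not deviate together (correlations -0.01, -0.12 and -0.00 for replicates 3, 4 and 5), so the numbers were not taken to pair them. With the replicate number as a block, limma called 14 genes and the likelihood ratio test 118, and the markers stood at -0.21 (*Sox10*), -0.36 (*Tfap2a*) and -0.22 (*Tfap2b*), with adjusted *P* of 0.965, 0.877 and 0.973 in limma. Mutant replicate 1 has no control of its number, so that the block takes it out of the comparison. These limma fold changes therefore equal those without that pool and are not a separate check. *Sox10* and *Tfap2b* had an *r* of -0.78 in GC-corrected values (exact permutation *P*=0.0425). That *P* was not adjusted over the 3 pairs and belongs to an alternative chosen after seeing the data. Leaving out 1 pool, in uncorrected values, gave -0.87 to -0.18, with -0.18 when that pool was control replicate 3. It gave -0.16 to 0.89 for *Sox10* and *Tfap2a*, and -0.69 to 0.69 for *Tfap2a* and *Tfap2b*. List medians moved by more than their spread between pools in 3 of 132 alternatives, with ranges of 0.026 to 0.25 for neurons and -0.091 to 0.014 for AP-2 cofactors. Smaller moves turned the sign of other medians when 1 pool was left out, with ranges of -0.10 to 0.05 for glia, -0.15 to 0.02 for early crest, -0.12 to 0.03 for crest mesenchyme, -0.06 to 0.28 for epithelium and -0.16 to 0.03 for cardiomyocytes. A minimum mean of 5 CPM left out all 3 markers and gave no value for them. With 7 to 111 reads per pool, counting error alone gave *Sox10* a coefficient of variation of about 11.5% to 11.6%, and *Tfap2b* 15.6% to 16.8%. Causes were not tested.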
